A study of Rattus norvegicus with 6 samples.

Results

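Pyruvate cycling and anaplerosis were followed through 10 genes, Pc, Pck1, Pck2, Me1, Mdh1, Mdh2, Idh1, Cs, Slc25a1 and Glud1, in rat 832/13 INS-1 cells depleted of COUP-TFII. Every probe set that the platform annotation gives to 1 of these genes was taken, which made 18 of the 31042 probe sets that are not controls. Each probe set sums up several short oligonucleotides designed against the same transcript. The 832/13 INS-1 cell is an insulin-secreting clone derived from a rat insulinoma, so that all samples came from 1 clonal tumour line. Cells at passages 7 to 25, grown in medium with 11 mM glucose and 1 mM pyruvate, were electroporated either with siRNA against COUP-TFII or with a scrambled siRNA, and were cultured for 48 h. RNA of 3 biological replicates per siRNA was hybridised to Affymetrix rat arrays, 1 array each, and the labels number the replicates 1 to 3 in both groups. The comparison asked which transcripts differed in COUP-TFII depleted cells against control cells.

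Pyruvate that enters a mitochondrion is either oxidised to acetyl-CoA or carboxylated to oxaloacetate, and the second entry refills the citric acid cycle, which is what anaplerosis means. In the β-cell much of the glucose carbon takes the carboxylation route, and malate, citrate and isocitrate that leave the mitochondria return to pyruvate through cytosolic enzymes, in part with formation of NADPH. These pyruvate cycles have been linked to glucose-stimulated insulin secretion. COUP-TFII, encoded by Nr2f2, is an orphan nuclear receptor, and receptors of its family bind repeats of the half-site AGGTCA, among others in the promoter of the gluconeogenic gene Pck1.

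The siRNA target was lower in depleted cells. Nr2f2 probe set 1389554_at read 47.0, 27.7 and 23.8 on arrays 1 to 3 of COUP-TFII siRNA and 182, 235 and 179 on those of scrambled siRNA, and its log2 fold change was -2.65 (SE 0.30). In limma the adjusted p was 0.404 without pairing and 0.0185 with the replicate number as a block. A second Nr2f2 probe set differed by -1.71 and the third, which was dim, by -0.37. Signals are linear MAS5 intensities, and signals are called dim where both group means lay at or below 20.7, the top signal reached by any Bacillus control. Of 12 β-cell markers 9 had a named probe set and none of these was dim, with summed signals of 46400 to 50620 in depleted and 35010 to 47510 in control cells. All 5 acinar and both ductal probe sets were dim, and so were 2 of 3 delta-cell and PP-cell, 4 of 5 hepatocyte, 3 of 4 leukocyte and 5 of 7 mesenchymal and endothelial probe sets. Glucagon (Gcg) stood apart among markers of other cells, of which no other probe set read above 65.6 on any array. Its signals were 8056, 4789 and 817 in depleted and 6313, 3397 and 394 in control cells. Gcg thus followed the replicate number and was higher in depleted cells in all 3 pairs. Of the other alpha-cell markers 1 of the 2 named probe sets was dim, and the summed list ran from 857.5 to 8081 in depleted and from 432 to 6363 in control cells. The part of glucagon-expressing cells in the results below was not tested. The 3′ to 5′ signal ratio of β-actin was 2.64 to 3.39 in depleted and 2.88 to 3.0 in control cells. For GAPDH it was 1.04 to 1.07 in depleted and 0.974 to 1.09 in control cells.

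None of the 18 probe sets of pyruvate cycling passed an adjusted p of 0.05 in limma, nor did any probe set on the array in the unpaired fit (0% called). At an unadjusted p up to 0.05, 1 of the 18 was lower in depleted cells, a Pck2 probe set, against a background of 1.34% of all probe sets called lower and 2.31% called in either direction. With the replicate number as a block the count was 2, Pck2 and Pc, both lower, against backgrounds of 3.51% lower and 6.23% in either direction. After adjustment the block fit called none of the 18 and 0.0161% of all probe sets. The methods' t-test, an unpaired test at a p up to 0.05, gave the same 2, against a background of 3.14%. The groups did not overlap for 4 of the 18, where 6.69% of all probe sets did not, and 8 of the 18 differed in the same direction in all 3 pairs, where 27.4% did. By mean, 8 probe sets were higher and 10 lower in depleted cells, and the median log2 fold change was -0.01, beside -0.0031 over all probe sets. In a cell culture a lower share of cells that express a gene and less RNA per cell cannot be told apart.

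**Figure D1:**
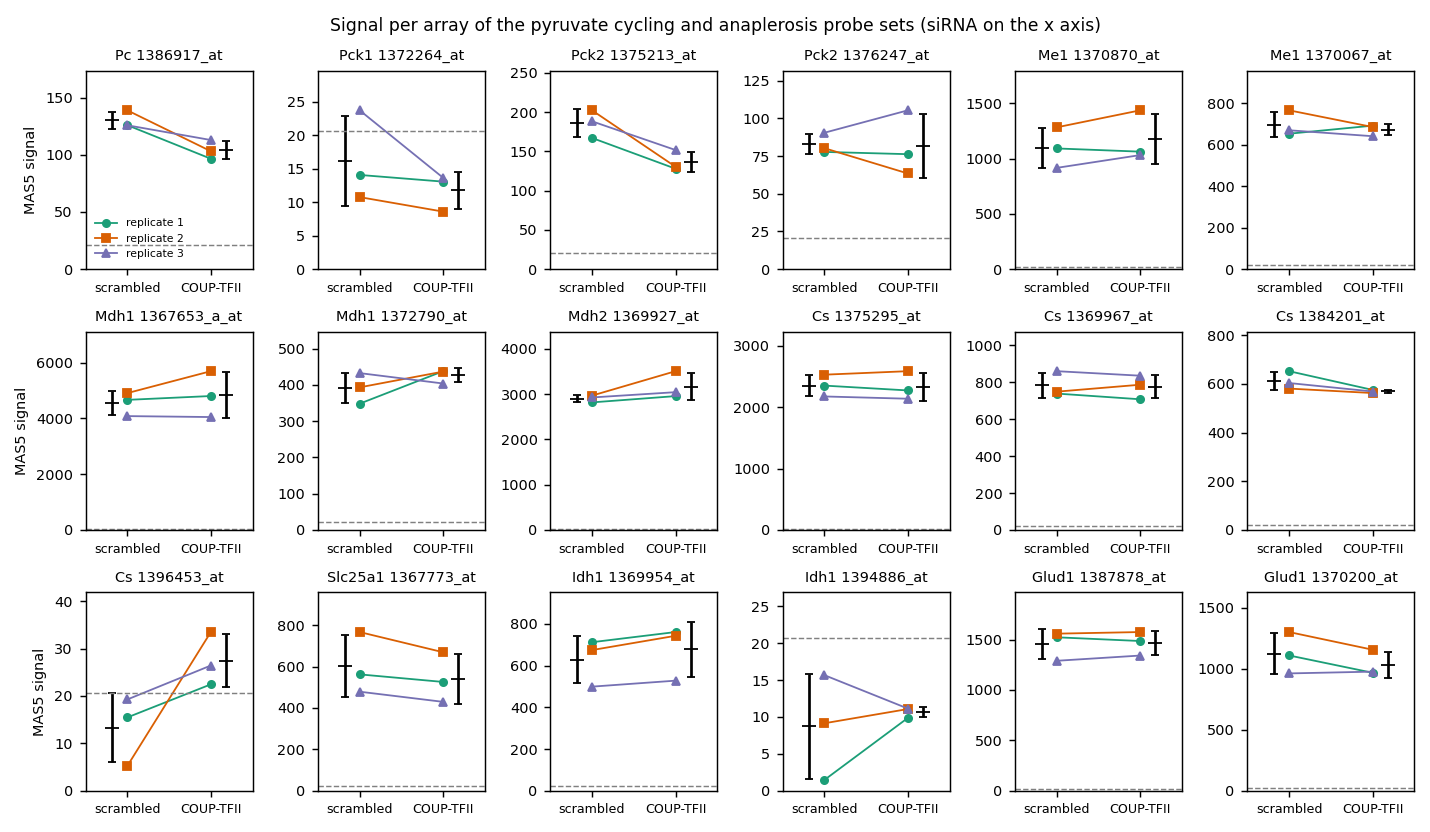
MAS5 signal (y axis, linear, from 0) of each of the 18 probe sets on the 3 scrambled and 3 COUP-TFII siRNA arrays (x axis), with lines joining arrays of 1 replicate number, black bars giving mean ± SD and a dashed line at 20.7, the highest Bacillus control signal. Pc and Pck2 1375213_at are lower on all 3 COUP-TFII arrays than on any scrambled array, while the lines of Slc25a1, Idh1 1369954_at and Glud1 1387878_at run almost in parallel.

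Pyruvate carboxylase (Pc) makes oxaloacetate from pyruvate in the mitochondria and is the entry enzyme of all pyruvate cycles. Its probe set 1386917_at read 96.5, 103 and 113 in depleted cells and 126, 139 and 126 in control cells, or 104 ± 8.26 against 130 ± 7.54 (SD, n = 3). Every depleted array lay below every control array, and within pairs the log2 difference was -0.38, -0.43 and -0.16. The log2 fold change was -0.32 (SE 0.18), a change of -20.1% with a 95% interval of -39.8% to 6.16%. It missed the unadjusted threshold of 0.05 in the unpaired limma fit (adjusted p = 1) and passed it with the replicate block (adjusted p = 0.797). By the exact permutation test over the arrays p was 0.1, the smallest that 3 against 3 arrays can give. Pc is also among the probe sets that the study listed by P value on these same arrays, so that its place among the members is not independent evidence of its direction.

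Phosphoenolpyruvate carboxykinase turns oxaloacetate into phosphoenolpyruvate, in the cytosol as the product of Pck1 and in the mitochondria as that of Pck2. Both genes have a window of 250 bases upstream of the transcription start in the RefSeq table of the build GRCr8, as have 9 of the 10 genes in all, and the windows of these 2 are shown because each holds a match that no other of the 9 holds. In the Pck1 window, chr3:182348322-182348571 on the plus strand, capitals mark the half-site AGGTCA of COUP-TF receptors, which begins 144 bases before the start. In the Pck2 window, chr15:32997603-32997852 on the plus strand, capitals mark TTACATCA, which begins 239 bases before the start. It matches the reverse complement of TGATGNAA, the core of the element bound by C/EBP and ATF dimers, so the core itself lies on the opposite strand.
Pck1: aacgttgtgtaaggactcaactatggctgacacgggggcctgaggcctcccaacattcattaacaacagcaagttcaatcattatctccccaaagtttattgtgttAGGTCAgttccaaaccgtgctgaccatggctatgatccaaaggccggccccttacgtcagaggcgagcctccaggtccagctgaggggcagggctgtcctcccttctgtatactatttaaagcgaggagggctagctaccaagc
Pck2: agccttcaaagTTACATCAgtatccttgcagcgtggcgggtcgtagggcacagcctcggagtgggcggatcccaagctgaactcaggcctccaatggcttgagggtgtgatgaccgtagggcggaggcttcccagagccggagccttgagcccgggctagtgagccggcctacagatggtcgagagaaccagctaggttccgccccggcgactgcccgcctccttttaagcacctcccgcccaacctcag
Searched on both strands, AGGTCA occurred in 14.1% and TGATGNAA in 3.4% of 33469 such windows, and a match is a description of the letters only.

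Pck2 gave the lowest limma p of the 18 probe sets, without and with the block. Probe set 1375213_at read 128, 130 and 152 in depleted cells and 167, 202 and 188 in control cells, or 137 ± 13.0 against 186 ± 17.7 (SD, n = 3). The groups did not overlap, and within pairs the log2 difference was -0.39, -0.63 and -0.31. The log2 fold change of -0.44 (SE 0.17) is a change of -26.5% with a 95% interval of -43.8% to -3.82% (exact permutation p = 0.1, the smallest possible). It passed the unadjusted threshold in limma without and with the replicate block, with an adjusted p of 1 and of 0.720. Leaving out COUP-TFII array 1 or 2, or scrambled array 2 or 3, ended the unadjusted call of the unpaired limma fit, with log2 fold changes of -0.40, -0.41, -0.38 and -0.43. The call was also lost in limma without the intensity trend and after median centring, with log2 fold changes of -0.44 and -0.45. This probe set too is in the study's own list from these arrays. A second Pck2 probe set, 1376247_at, overlapped between the groups, with 76.3, 63.4 and 105 in depleted against 77.8, 80.2 and 90.5 in control cells and a log2 fold change of -0.05 (95% interval -0.62 to 0.53). Set against each other within an array, the log2 ratio of the first over the second probe set was 0.74, 1.04 and 0.52 in depleted and 1.10, 1.33 and 1.06 in control cells, without overlap, and the mean difference was -0.39 (exact permutation p = 0.1, the smallest possible). The first probe set was singled out for its low p, and with 3 arrays a group the exact test cannot go below 0.1. A difference between the 2 probe sets is therefore not established. Which transcripts each detects was not analysed here.

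Pck1 was dim. Probe set 1372264_at read 13.1, 8.57 and 13.6 in depleted and 14.0, 10.7 and 23.7 in control cells, and only scrambled array 3 lay above 20.7. Its log2 fold change of -0.41 had an interval of -1.74 to 0.92, and no difference was detected.

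**Figure D2:**
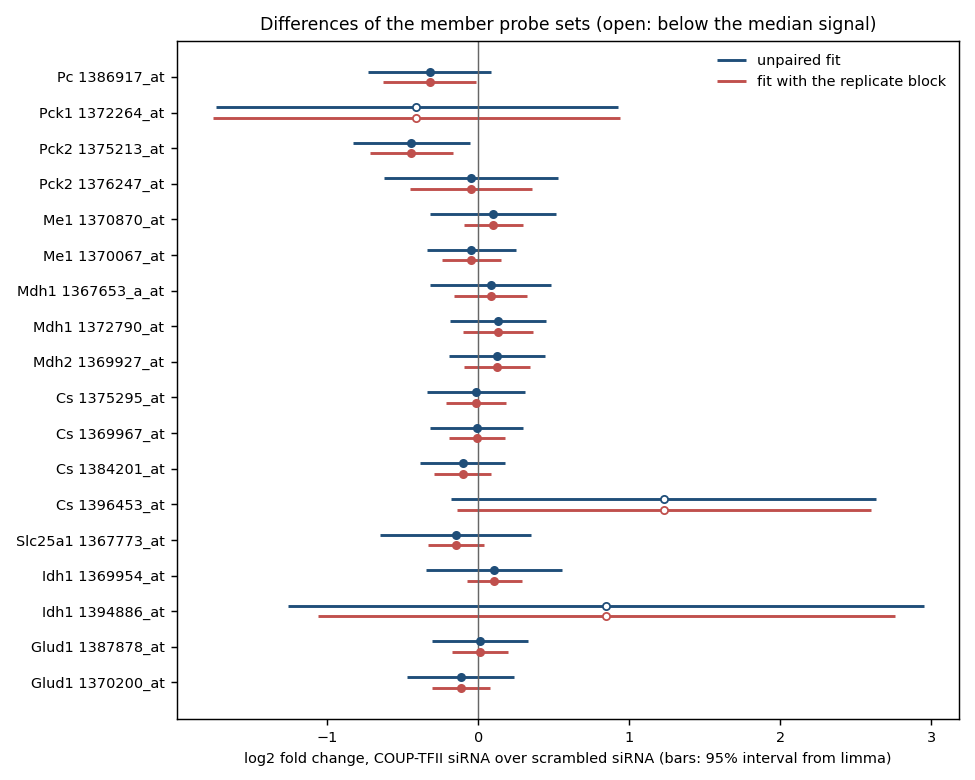
Log2 fold change of COUP-TFII over scrambled siRNA (x axis) for each of the 18 probe sets (y axis), with the 95% interval of the unpaired limma fit in blue and of the fit with the replicate block in red, and open points for probe sets below the median signal. The intervals of Pck2 1375213_at lie below 0 in both fits, that of Pc only with the block, and those of the 3 open points span the widest ranges.

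Cytosolic malic enzyme (Me1) returns malate to pyruvate with formation of NADPH. Its probe set 1370870_at read 1062, 1436 and 1031 in depleted and 1091, 1282 and 915 in control cells, where array 2 was the highest of each group and the ranges overlapped. The log2 fold change was 0.10 (95% interval -0.32 to 0.52). Probe set 1370067_at, with 641 to 692 in depleted and 653 to 766 in control cells, differed by -0.05 (interval -0.34 to 0.25), so that the signs of the 2 differed and neither was separated from 0.

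Malate dehydrogenases interconvert malate and oxaloacetate, Mdh1 in the cytosol and Mdh2 in the mitochondria. The brighter Mdh1 probe set, 1367653_a_at, read 4801, 5692 and 4047 in depleted and 4663, 4905 and 4081 in control cells (log2 fold change 0.08, interval -0.32 to 0.48), and the ranges overlapped. Mdh1 1372790_at read 438, 436 and 404 against 348, 393 and 432, higher in pairs 1 and 2 and lower in pair 3, and differed by 0.13 (interval -0.19 to 0.45). For Mdh2 the signals were 2957, 3508 and 3044 in depleted and 2818, 2968 and 2927 in control cells. Mdh2 was higher in depleted cells in all 3 pairs, by 0.07, 0.24 and 0.06 on the log2 scale, and the mean of 0.12 had an interval of -0.19 to 0.44 and did not pass the unadjusted threshold in either limma fit (exact permutation p = 0.2).

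Citrate synthase (Cs) joins oxaloacetate with acetyl-CoA, and its 4 probe sets fall into 3 bright and 1 close to background. Cs 1375295_at read 2273, 2587 and 2138 in depleted and 2352, 2530 and 2175 in control cells, a log2 fold change of -0.01 (interval -0.34 to 0.31), and Cs 1369967_at differed by the same rounded -0.01 (interval -0.32 to 0.30). The signals of the third, Cs 1384201_at, were 575, 562 and 569 in depleted and 652, 581 and 603 in control cells. These groups did not overlap, although the difference was only -0.10 (interval -0.38 to 0.18; exact permutation p = 0.1, the smallest possible). Cs 1396453_at, near background, read 22.4, 33.5 and 26.4 in depleted and 15.5, 5.21 and 19.2 in control cells. All 3 depleted arrays lay above 20.7 and all 3 control arrays below it. Its log2 fold change of 1.23 (interval -0.18 to 2.63, adjusted p = 1 in limma) was 0.65 without scrambled array 2 and 1.59 without scrambled array 3, where it passed the unadjusted threshold of the limma fit. The 3 bright probe sets of Cs had means slightly lower in depleted cells, with intervals that all include 0.

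The citrate carrier Slc25a1 exports citrate from the mitochondria, and cytosolic isocitrate dehydrogenase (Idh1) forms 2-oxoglutarate and NADPH from what leaves. Slc25a1 1367773_at read 526, 669 and 430 in depleted and 562, 767 and 479 in control cells. The ranges overlapped because replicate 2 was high and replicate 3 low in both groups, while depleted cells were lower in every pair, by -0.10, -0.20 and -0.16 on the log2 scale. Across groups the difference was -0.15 with an interval of -0.65 to 0.35 in the unpaired fit and of -0.34 to 0.04 with the replicate block, and it did not pass the unadjusted threshold in either limma fit. Idh1 1369954_at was higher in depleted cells in every pair, with 760, 742 and 528 against 712, 674 and 499, and its pair differences were 0.10, 0.14 and 0.08. Its mean difference of 0.11 had intervals of -0.34 to 0.55 without and -0.08 to 0.29 with the block, so that neither fit separated it from 0. The second Idh1 probe set, 1394886_at, was dim, with 9.87 to 11.1 in depleted and 1.46 to 15.7 in control cells.

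Glutamate dehydrogenase (Glud1) links glutamate to 2-oxoglutarate and so gives amino acids an entry to the cycle. Glud1 1387878_at read 1485, 1574 and 1341 in depleted and 1522, 1558 and 1289 in control cells and differed by 0.01 on the log2 scale (interval -0.31 to 0.33). Glud1 1370200_at, with 968, 1157 and 977 against 1110, 1302 and 963, differed by -0.12 (interval -0.47 to 0.24). Depleted cells were lower in pairs 1 and 2 and level with control cells in pair 3.

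Outside Pc and Pck2, 12 probe sets of 7 genes had a mean signal at or above the median of all probe sets, and their log2 fold changes lay between -0.15 and 0.13. Their 95% intervals in the unpaired limma fit reached from -0.65 to 0.55, and with the replicate block from -0.34 to 0.36. A change of up to 0.637-fold or 1.47-fold thus remained inside at least 1 of the unpaired intervals. With Pc and Pck2 included, 13 of the 15 probe sets at that signal differed by less than 0.2 on the log2 scale (86.7%), as did 72.5% of all 15521.

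Replicate number ordered many of these signals, and the median signal of the whole array also stood in the same order in both groups. That median was 35.9, 31.2 and 39.4 on arrays 1 to 3 of COUP-TFII siRNA and 37, 29.9 and 39.4 on those of scrambled siRNA. Arrays were not normalized again for these counts, and the part of the array medians in the order of single probe sets was not tested. For 11 of the 18 probe sets the arrays of both groups stood in the same order by replicate number, against 30.4% of all probe sets. Among those at or above the median signal it was 9 of 15 against 39.1%. The 9 belong to Me1, Mdh1, Mdh2, Cs, Slc25a1, Idh1 and Glud1, and none to Pc or Pck2. In Slc25a1, for example, the control arrays differed among themselves by 0.68 on the log2 scale while the mean difference between the groups was -0.15. The same order was also common in the wider list of pathway genes described below, in 34 of 69 probe sets (49.3%). By group it ran there from 25.0% for the other malic enzymes and NADPH to 75.0% for the rest of the citric acid cycle.

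The rest of the pathway was read from a list of 56 further genes, of which 51 had a named probe set, 69 probe sets in all. After adjustment limma called none of the 69 in either fit. At the unadjusted threshold the unpaired fit called 1, Slc25a22, lower, and the block fit called 4 higher and 2 lower, against the backgrounds of 2.31% and 6.23% given above. The methods' t-test called 1, Gpt2, higher. The groups did not overlap for 5 of the 69 (7.25%, beside 6.69% of all probe sets), and the median log2 fold change was 0.03. By group the median was 0.13 for 6 probe sets of pyruvate supply and lactate, 0.09 for 16 of the pyruvate dehydrogenase complex with its kinases and phosphatases, 0.06 for 4 of the other malic enzymes and NADPH, 0.02 for 16 of the rest of the citric acid cycle, 0.05 for 11 of glutamine, glutamate and aminotransferases and -0.09 for 6 of propionyl-CoA entry. The 10 probe sets of citrate use and the mitochondrial carriers had the lowest median, -0.17, with 7 lower and 3 higher by mean, and 4 of the 10, 1 of them dim, did not overlap between the groups, all lower in depleted cells, where 6.69% of all probe sets did not overlap. This group was singled out after its values were seen.

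**Figure D3:**
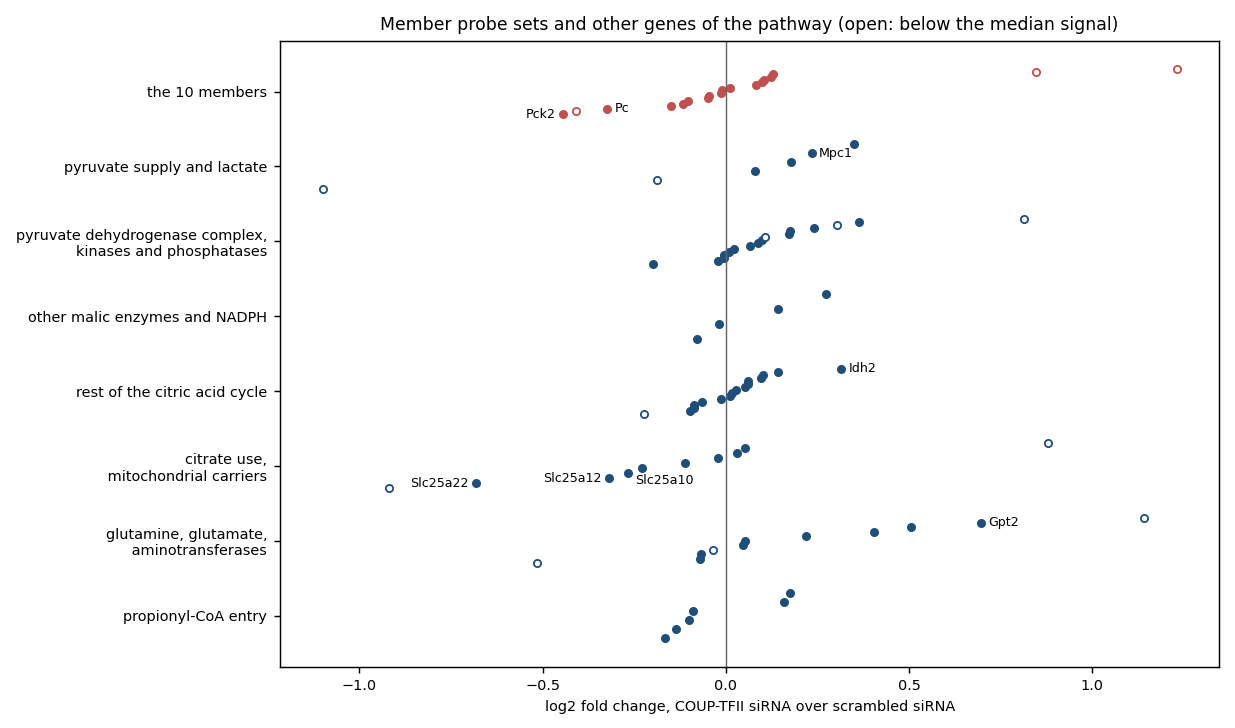
Log2 fold change of COUP-TFII over scrambled siRNA (x axis) for the 18 probe sets of the 10 genes (red) and for 69 probe sets of other pathway genes by role (blue; y axis, spread within a row for display only), with open points below the median signal. The filled red points apart from Pck2 and Pc lie within 0.2 of 0, and 7 of the 10 points of citrate use and the mitochondrial carriers lie to the left of 0.

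Slc25a22, a mitochondrial glutamate carrier, read 159, 198 and 113 in depleted and 204, 333 and 216 in control cells. Every depleted array lay below every control array, and the log2 fold change was -0.68 (SE 0.26, adjusted p = 1 in limma without pairing, adjusted p = 0.377 with the replicate block). Leaving out COUP-TFII array 1, scrambled array 2 or COUP-TFII array 3 ended its unadjusted limma call, with log2 fold changes of -0.71, -0.46 and -0.46. The aspartate-glutamate carrier Slc25a12 differed by -0.32 and passed the unadjusted threshold of the block fit, and the dicarboxylate carrier Slc25a10 differed by -0.27 at 1383886_at and did not, both without overlap. A brighter Slc25a10 probe set, 1370020_at, overlapped between the groups, differed by -0.11 and was higher in depleted cells in pair 3. The fourth carrier without overlap, Slc25a21, was dim and was picked out here after its values were seen. Mitochondrial alanine aminotransferase, Gpt2, gave 54.8, 42.4 and 46.7 in depleted against 22.0, 35.4 and 32.7 in control cells at 1384903_at, a log2 fold change of 0.70 (95% interval -0.10 to 1.49, adjusted p = 1 in limma). Its second probe set overlapped between the groups and differed by 0.22. Idh2, the mitochondrial NADP-dependent isocitrate dehydrogenase, was higher in all 3 pairs by a mean of 0.31 on the log2 scale, as was Mpc1, a subunit of the mitochondrial pyruvate carrier, by 0.23, and both passed the unadjusted threshold of the block fit. Idh2 differed by 0.12 without scrambled array 1, and Mpc1 by 0.11 without COUP-TFII array 2. The other 2 that the block fit called higher were Ldhb and Me2 1381403_at, named after their values were seen, with log2 fold changes of 0.35 and 0.27. The second Me2 probe set, 1393475_at, was not called and differed by 0.14, with depleted cells lower in pair 1. None of these block calls held after adjustment over all probe sets.

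Across the 6 arrays, the named probe sets most like Pc 1386917_at in log2 signal were Pabpc4 (Pearson r = 0.986), Rab15 (0.984) and Atp2a3 (0.983), among 12190 compared. Those most like Pck2 1375213_at were Ptprn2 (0.983), Atp2a3 (0.982) and Pabpc4 (0.981), among 12189, so that Pabpc4 and Atp2a3 stood near both. The 6 points share arrays and the split into depleted and control cells, and 68 and 59 probe sets reached an r of 0.9 or more with Pc and Pck2, so these are descriptions of pattern only.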

How the data were processed

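The treatment label grouped the 6 arrays of 832/13 INS-1 cells into 3 per siRNA. The deposited values are linear intensities, which the authors obtained with MAS5 (version not given in the sources used here), after subtracting background and scaling to reference probes left unnamed. No detection calls were used, and the number of arrays limits the precision. The table holds 31099 probe sets, and 57 controls, 27 of them from Bacillus, did not enter the tests. Before log2 was taken any signal under 1 was raised to 1, so differences of dim probe sets depend on that floor, and arrays were not normalized again. Testing used limma 3.58.1 (R 4.3.3; lmFit, then eBayes with trend), two-sided, without pairing as in the study's methods, and p-values were adjusted by Benjamini-Hochberg over 31042 probe sets. The fits were tested on simulated data drawn without replicate pairs and with shifts of 1 or more on the log2 scale. Paired arrays and smaller differences were thus not covered. Figures were drawn with matplotlib 3.10.9.

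Of the probe sets, 20826 carry 1 symbol in the platform annotation, 9780 none and 436 several. The last were not named, and 0 of them hold a member. Promoter windows are those of RefSeq on GRCr8.

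Both groups carry replicate numbers 1 to 3 in the labels. Over all probe sets, deviations from the group means correlated by 0.111, 0.231 and 0.163 for equal numbers and by -0.146 to -0.0104 for unequal ones. Deviations cancel out within a group, so positive values for equal numbers force negative ones for unequal numbers on balance. The negative values are therefore not separate evidence. The numbers were read as pairs from the same signals that the block fit then tests. The array medians, which also follow the replicate number, were not tested for their part in these correlations. Values with the replicate block appear where a call or, by over 1.5 times, a count depends on it. In places they also stand beside the unpaired values where no call changed, as for Slc25a1 and Idh1.

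The members, the gene lists and the tests were chosen with earlier results of these data known. All probe sets of the 10 genes and of Nr2f2 were named, with up to 6 genes of the wider list by lowest unadjusted p at or above the median log2 signal of 5.07, and the 3 named probe sets most correlated with Pc and with Pck2. Each result was recomputed by the methods' t-test, with the replicate block, without the trend in limma, after quantile normalization or median centring, on log2(signal + 16), after filtering dim probe sets, on the brightest probe set per gene (for the median only) and with each array omitted in turn.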

Additional observations from a re-analysis of the deposited data

How the results depend on the processing

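The replicate block took Nr2f2 past the adjusted threshold (-2.65, adjusted p = 0.0185 in limma) and changed no adjusted call among the 18 probe sets or the wider list. The count of the 18 probe sets called at an unadjusted p up to 0.05, 1 in the unpaired fit, was 2 by the methods' t-test and with the block, and 0 without the trend in limma and after median centring. For the wider list the count of 1 became 2 without the trend, 6 with the block, 0 after median centring and 2 after filtering dim probe sets. With 1 array left out the counts were 0 to 1 and 0 to 2. They were 0 for both lists without COUP-TFII array 1 or scrambled array 2, while without COUP-TFII array 2 they were 0 and 2. A share over all probe sets is given only for the unpaired fit, the block and the methods' t-test. Whether the counts under the other settings follow the call rate of the whole array was not tested.

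Pc and Pck2 1375213_at kept their sign under all alternatives, but most of these could not turn it. Their groups did not overlap, so leaving out any 1 array could not. The methods' t-test, the block, limma without the trend and the dim filter leave the log2 fold change unchanged. For Pc it was -0.306 after quantile normalization, -0.327 after median centring and -0.284 on log2(signal + 16). For Pck2 1375213_at it was -0.415, -0.448 and -0.403. Signs turned only for differences near 0 or dim probe sets. Quantile normalization gave -0.024 for Mdh1 1367653_a_at and -0.0129 for Glud1 1387878_at. With 1 array left out the log2 fold change ran from -0.249 to 0.117 for Pck2 1376247_at, -0.053 to 0.219 for Me1 1370870_at, -0.0912 to 0.024 for Me1 1370067_at, -0.0414 to 0.205 for Mdh1 1367653_a_at, -0.0912 to 0.0463 for Cs 1375295_at, -0.0653 to 0.0589 for Cs 1369967_at, -0.315 to 0.038 for Slc25a1, -0.0527 to 0.275 for Idh1 1369954_at, -0.165 to 1.55 for Idh1 1394886_at and -0.0734 to 0.0753 for Glud1 1387878_at. The median of the 18 ran from -0.061 to 0.0387. The causes of these shifts were not tested. With 3 arrays a group no exact test over arrays can go below 0.1.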
